A study of Mus musculus with 6 samples.

Results

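The common gamma-chain cytokine receptors are described here in CD4+CD25+ cells labelled as regulatory T cells (Treg). Treg are the T cells that restrain immune responses and are defined by the transcription factor Foxp3. The group was chosen by name and holds 7 genes, Il2ra (CD25), Il2rb (CD122), Il2rg (CD132), Il7r (CD127), Il4ra, Il15ra and Il21r, of 12393 genes with a probe set that the platform annotation gives a single symbol. Of the 7 genes, 6 had such a probe set, with 12 probe sets in all of the 22690 in the table. The annotation names 0 probe sets for Il2rg, the shared chain itself, so its RNA is not analysed here. All 6 measured genes passed the filter on dim genes and were tested.

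RNA from CD4+CD25+ cells was hybridised to 6 expression arrays, 1 per sample, 3 from p300-deleted and 3 from control mice, all C57Bl/6. The p300-deleted mice had the genotype fl-p300/Foxp3cre, in which a Cre recombinase driven from Foxp3 deletes the floxed gene of the histone acetyltransferase p300 in Foxp3-expressing cells. The controls had the genotype Foxp3cre, so both groups carried the Cre allele, although the titles of the control samples call them WT. Cells were separated magnetically by CD4 and CD25, the product of Il2ra, so the selection step itself acted on the protein of 1 of the genes described. The series' design text calls the samples independent without saying that the animals were separate, so p-values cover only the spread seen among these arrays, some of which may be technical.

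Receptors of this family share the gamma chain, which is needed for signalling by IL-2, IL-4, IL-7, IL-9, IL-15 and IL-21. CD25 binds IL-2 and, with CD122 and the gamma chain, forms the high-affinity IL-2 receptor on which Treg depend, while CD122 and the gamma chain also serve IL-15. The kinases Jak1 and Jak3 sit on the receptor chains and activate STAT factors, mainly STAT5 after IL-2, IL-7 and IL-15, STAT6 after IL-4 and STAT3 after IL-21. High CD25 with low CD127, the alpha chain of the IL-7 receptor, is the usual surface pattern of Treg.

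Values are log2 expression after robust multi-array averaging (RMA), differences are p300-deleted minus control on this scale, and a gene was called changed at a Benjamini-Hochberg adjusted p under 0.05 over 8675 tested genes in limma. Each gene is read by its brightest probe set, and the level of 1 probe set cannot be set against that of another. The labelled cell type was checked first. Foxp3 was at 2.57, 3.04 and 3.15 in p300-deleted arrays, against 9.63, 9.35 and 9.39 in control arrays, a difference of -6.53 (adjusted p = 4.36e-07 in limma). The p300-deleted values lay below the lower quartile of each array (3.26 to 3.29), where the median of bacterial control probe sets was 2.18 to 2.34. The signal for the transcript that defines Treg was thus near background in that group, and the difference is a minimum of its size. By Foxp3, the p300-deleted arrays did not pass this check of the labelled cell type. The difference was also -6.53 with the mean of all Foxp3 probe sets, so it rests on a single probe set. Whether the RNA or only the signal of that probe set was lost was not tested. Cd4 was at 9.86, 10.07 and 9.74 in p300-deleted arrays, against 9.45, 8.91 and 9.27 in control arrays (0.68, SE 0.16, adjusted p = 0.0746 in limma), and CD25 RNA was well above background in both groups. The cells were separated by CD4 and CD25, so these values cannot stand in for Foxp3 in the check. In these bulk samples, fewer cells that express a gene and less RNA per cell cannot be told apart.

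The results turn on Il21r, the 1 member past the threshold, and on Il2ra and Il7r, whose brightest probe sets lay apart in opposite directions. Their promoters are printed from RefSeq (build GRCm38.p6), from 250 bases before to 50 bases after the start site, 5′ to 3′, with motif matches in capitals. Il2ra lies on the plus strand at chr2:11642542-11642841, Il7r on the minus strand at chr15:9529827-9530126 and Il21r on the plus strand at chr7:125603179-125603478.
Il2ra: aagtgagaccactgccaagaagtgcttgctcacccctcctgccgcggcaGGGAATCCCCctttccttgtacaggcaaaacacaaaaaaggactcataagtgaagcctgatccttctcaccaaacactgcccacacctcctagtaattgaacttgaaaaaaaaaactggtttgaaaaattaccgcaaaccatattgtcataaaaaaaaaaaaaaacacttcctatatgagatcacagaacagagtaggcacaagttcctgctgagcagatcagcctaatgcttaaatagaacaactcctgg
Il7r: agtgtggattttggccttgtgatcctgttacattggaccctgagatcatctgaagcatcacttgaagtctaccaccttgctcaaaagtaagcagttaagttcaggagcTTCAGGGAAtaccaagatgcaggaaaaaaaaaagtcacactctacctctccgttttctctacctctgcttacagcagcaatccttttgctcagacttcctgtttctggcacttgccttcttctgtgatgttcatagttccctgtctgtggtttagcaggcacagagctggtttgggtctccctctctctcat
Il21r: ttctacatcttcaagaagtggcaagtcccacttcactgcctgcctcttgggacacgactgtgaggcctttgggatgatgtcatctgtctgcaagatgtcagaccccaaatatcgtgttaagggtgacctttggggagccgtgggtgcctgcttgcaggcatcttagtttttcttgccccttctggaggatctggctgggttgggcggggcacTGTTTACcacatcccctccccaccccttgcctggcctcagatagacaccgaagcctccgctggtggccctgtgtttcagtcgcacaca
The motifs searched on both strands were the STAT motif TTCNNNGAA, the forkhead motif TGTTTAC, the kind of motif bound by Foxp3 and Foxo1, and the NF-kB consensus. The Il2ra window holds an NF-kB match that starts 201 bases before the start site, the Il7r window a STAT match 142 bases before it and the Il21r window a forkhead match 38 bases before it, and the matches do not overlap one another. Of 32851 mouse promoter windows, 8.3% hold the STAT motif, 3.65% the forkhead motif and 5.8% the NF-kB consensus. A match is a stretch of letters and shows no binding.

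Il21r, which encodes the chain that binds IL-21 and signals with the gamma chain, rose in p300-deleted cells. It was at 7.92, 7.93 and 7.81 in p300-deleted arrays, against 7.28, 7.09 and 7.36 in control arrays. The p300-deleted arrays lay close together, and each was higher than every control. Means were 7.89 ± 0.07 in p300-deleted and 7.24 ± 0.14 in control cells (SD, n = 3 each), a difference of 0.65 (SE 0.11, adjusted p = 0.0392 in limma), or 1.56-fold. It was 1 of 6 tested members to rise, and 0 fell, against 1.72% of all tested genes that changed, 0.991% that rose and 0.726% that fell. When all probe sets rather than genes were tested, the same probe set had adjusted p = 0.0645 in limma, and the call was also lost on leaving out any array other than control 3 (0.57 to 0.68, adjusted p of 0.0511 to 0.165) and with the 18S ribosomal RNA value as a covariate (0.57, adjusted p = 0.135).

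**Figure D1:**
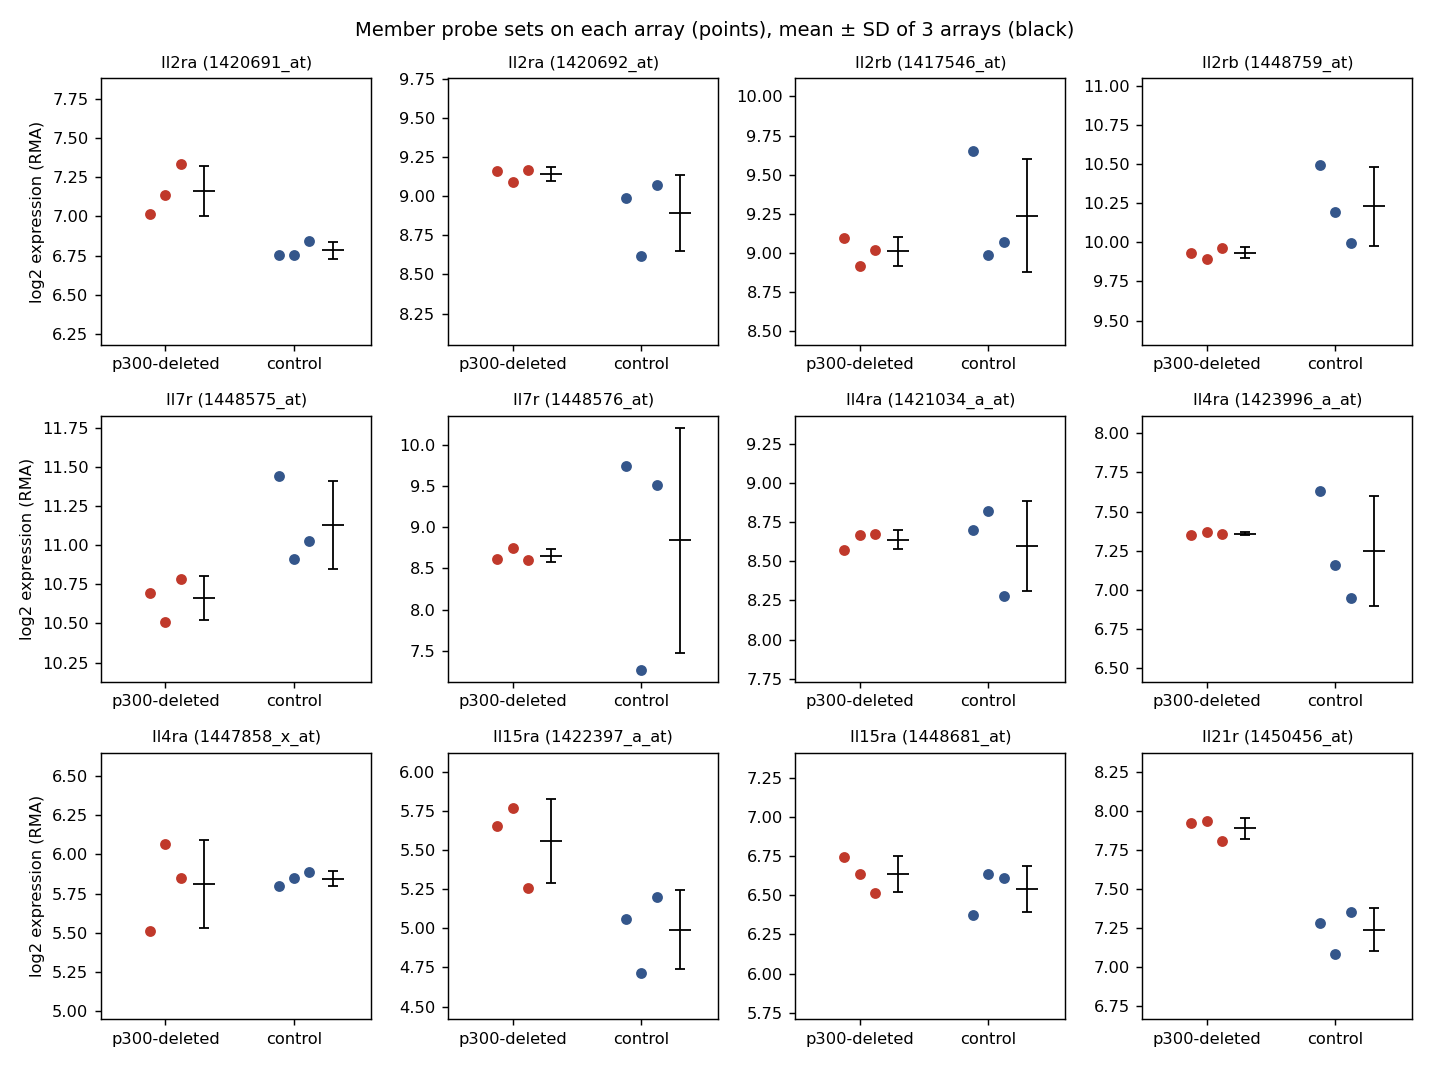
Log2 expression (RMA, y axis) of each of the 12 member probe sets in p300-deleted and control arrays (x axis), with 1 point per array and the mean ± SD of 3 arrays in black. Il21r and the Il2ra probe sets are higher in every p300-deleted array than in any control, Il7r 1448575_at is lower, and Il7r 1448576_at spreads widely among controls, from 7.28 to 9.74.

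Il2ra was read by a pair of probe sets, both with higher values in p300-deleted cells, but neither passed the test. Probe set 1420692_at was at 9.16, 9.09 and 9.17 in p300-deleted arrays, against 8.99, 8.62 and 9.07 in control arrays, a difference of 0.25 (SE 0.13, adjusted p = 0.378 in limma). The dimmer 1420691_at was at 7.02, 7.14 and 7.33 in p300-deleted arrays, against 6.75, 6.75 and 6.84 in control arrays, a difference of 0.38 (SE 0.12, adjusted p = 0.169 in limma over all probe sets). The groups did not overlap for either probe set. For the brighter probe set control 3 lay just under the lowest p300-deleted array, and control 2 lay furthest away. Without control 2 the difference of the brighter probe set was 0.11, and that of the dimmer was 0.36. The 95% intervals were -0.06 to 0.55 for the brighter and 0.11 to 0.65 for the dimmer probe set.

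Il2rb, which encodes the signalling beta chain of the IL-2 and IL-15 receptors, had lower values in p300-deleted cells without passing. Probe set 1448759_at was at 9.93, 9.90 and 9.97 in p300-deleted arrays, against 10.50, 10.19 and 10.00 in control arrays, a difference of -0.30 (SE 0.14, 95% interval -0.61 to 0.01, adjusted p = 0.295 in limma). The groups did not overlap, but control 3 lay just above the p300-deleted arrays and control 1 lay highest. Probe set 1417546_at was at 9.10, 8.92 and 9.02 in p300-deleted arrays, against 9.65, 8.99 and 9.07 in control arrays, and its groups overlapped (-0.23, SE 0.18, adjusted p = 0.560 in limma over all probe sets). Control 1 was again the highest array, and without it the differences were -0.16 and -0.02.

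Il15ra, which encodes the chain that binds IL-15 and presents it to neighbouring cells, had probe sets that differed in size. Probe set 1422397_a_at was at 5.66, 5.77 and 5.26 in p300-deleted arrays, against 5.06, 4.71 and 5.20 in control arrays, a difference of 0.57 (SE 0.18, adjusted p = 0.171 in limma over all probe sets). The brighter 1448681_at was at 6.75, 6.64 and 6.52 in p300-deleted arrays, against 6.37, 6.64 and 6.61 in control arrays, a difference of 0.09 (SE 0.12, 95% interval -0.18 to 0.36, adjusted p = 0.734 in limma). The groups lay narrowly apart for the dimmer probe set and overlapped for the brighter one. With the mean of both probe sets the difference was 0.33 (adjusted p = 0.210 in limma).

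Il7r, which encodes the chain that binds IL-7 and is a mark of naive and memory T cells, had lower values in p300-deleted cells without passing. Probe set 1448575_at was at 10.69, 10.51 and 10.78 in p300-deleted arrays, against 11.44, 10.91 and 11.03 in control arrays. All p300-deleted arrays were lower than the controls, and the difference was -0.46 (SE 0.15, 95% interval -0.82 to -0.11, adjusted p = 0.172 in limma), or 0.725-fold. The other probe set, 1448576_at, was at 8.61, 8.75 and 8.60 in p300-deleted arrays, against 9.74, 7.28 and 9.52 in control arrays. Its groups overlapped, because control 2 lay below the p300-deleted arrays and the other controls above them, and its difference was -0.19 (SE 0.56, adjusted p = 0.902 in limma over all probe sets). Without control 2 it was -0.97 (adjusted p = 0.0294 in limma), and without control 1 or control 3 it was 0.26 or 0.15. On 1448575_at control 2 was also the lowest control, but close to control 3.

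Il4ra, which encodes the IL-4-binding chain of the IL-4 and IL-13 receptors, had 3 probe sets, all with overlapping groups. Probe set 1421034_a_at was at 8.57, 8.67 and 8.68 in p300-deleted arrays, against 8.70, 8.82 and 8.28 in control arrays, a difference of 0.04 (SE 0.15, adjusted p = 0.925 in limma). The interval of this difference was -0.30 to 0.38, so a change within these bounds was not resolved. The other probe sets differed by 0.11 (SE 0.17) for 1423996_a_at and -0.04 (SE 0.15) for 1447858_x_at, with adjusted p of 0.781 and 0.932 in limma over all probe sets. The suffixes _a_at and _x_at mark probe sets that can bind several transcripts.

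**Figure D2:**
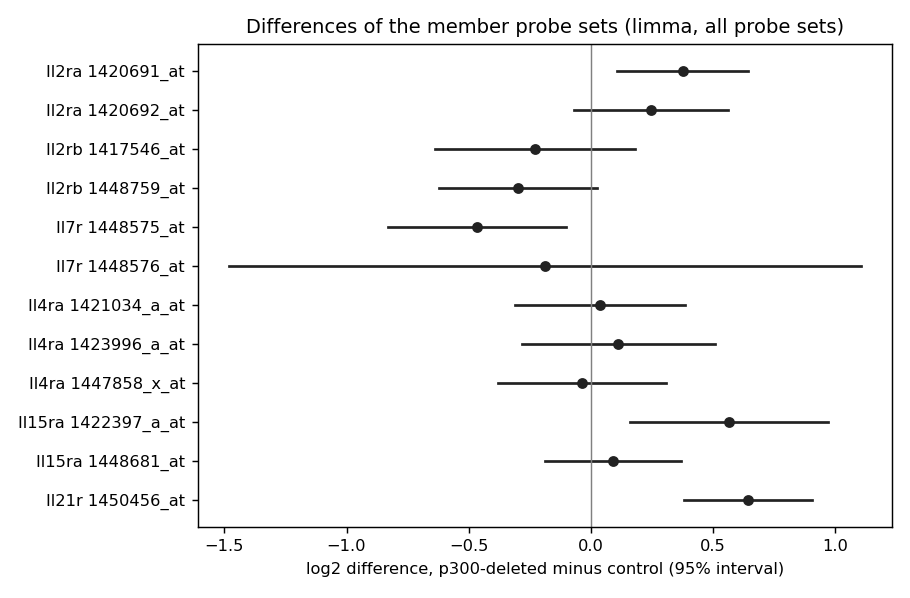
Log2 difference, p300-deleted minus control (x axis), of each of the 12 member probe sets (y axis), with points for the limma estimate over all probe sets and lines for the 95% interval. Il21r is highest at 0.65. The Il7r, Il2rb, Il2ra and Il15ra probe sets keep 1 sign within each gene. Il7r 1448576_at has the widest interval, from -1.48 to 1.11.

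Counted together, 7 of the 12 probe sets had positive and 5 negative differences, and 4 had an unadjusted p under 0.05, against 17.3% of all 14266 probe sets tested. In limma 0 of the 12 passed the adjusted threshold, where 0.456% of all probe sets passed in either direction and 0.322% passed as higher in p300-deleted cells. The p300-deleted and control values lay fully apart for 6 of the 12 probe sets, 4 higher and 2 lower in p300-deleted cells, where 23.1% of all tested probe sets had no overlap. By gene, the arrays did not overlap for 4 of 6 members (Il2ra, Il2rb, Il7r and Il21r), against 23.7% of all tested genes. The median difference of the 6 members was 0.07, against -0.03 over all tested genes. The spread between arrays was larger among controls than among p300-deleted arrays for 9 of the 12 probe sets. Probe sets of the same gene followed each other across the 6 arrays to different degrees, with Pearson's r of 0.86 for Il2rb, 0.66 for Il2ra, 0.47 for Il7r and 0.42 for Il15ra, and 0.58, 0.05 and -0.16 among the 3 of Il4ra.

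Il2ra and Il7r, whose proteins together mark Treg at the cell surface, were also compared within each array. The difference Il2ra minus Il7r was -1.53, -1.42 and -1.62 in p300-deleted arrays, against -2.45, -2.29 and -1.96 in control arrays. The separation of the groups follows from those of the probe sets, which lie apart in opposite directions, so the shift is given as a description of its size. Means were -1.52 ± 0.10 in p300-deleted and -2.24 ± 0.25 in control cells (SD, n = 3 each), a shift of 0.71. The two-sided exact permutation p was 0.10, the smallest that 3 against 3 arrays allow, and adds nothing to the separation of each probe set. The shift was 0.84 with the dimmer Il2ra probe set in place of the brighter one, and 0.43 and 0.56 with Il7r 1448576_at (exact permutation p = 0.50 for both, n = 3 each). It describes unequal differences of the probe sets between the groups, not a ratio of transcript numbers. Neither Il2ra nor Il7r was called changed.

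**Figure D3:**
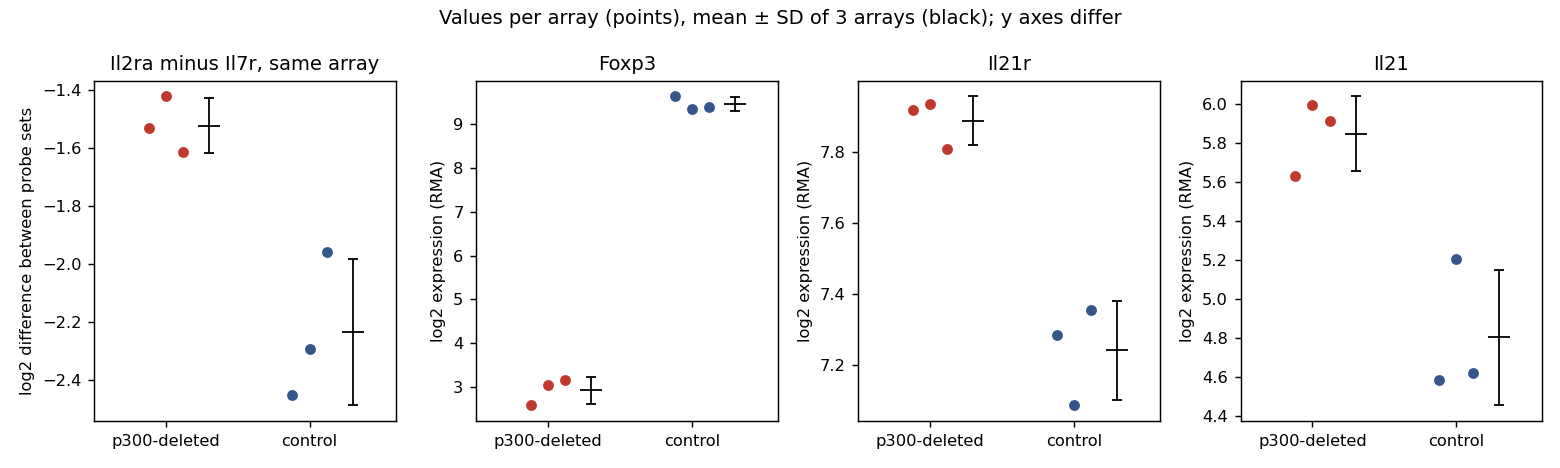
Values in p300-deleted and control arrays (x axis, 1 point per array, mean ± SD of 3 arrays in black) for the log2 difference Il2ra minus Il7r and for log2 expression of Foxp3, Il21r and Il21 (y axes, which differ between panels). In all 4 panels the groups lie apart, with Foxp3 lower and the other 3 higher in p300-deleted arrays.

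In the RefSeq gene table, Il2ra and Il15ra are adjacent on chromosome 2 and Il4ra and Il21r on chromosome 7, with 0 protein-coding genes between them in either pair. On chromosome 7 the neighbours had different values, 0.65 for Il21r and 0.04 for Il4ra. On chromosome 2 all 4 probe sets of Il2ra and Il15ra had positive differences, from 0.09 to 0.57. Il7r and Il2rb, both with negative differences, lie on chromosome 15 but are separated by 332 protein-coding genes.

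Genes whose log2 values ran most like a member over the 6 arrays were ranked by Pearson's r. Closest to Il21r were Serp1, a protein of the endoplasmic reticulum (r = 0.996, difference 0.52), the death receptor Fas (r = 0.994, difference 0.58) and Stx7, a syntaxin of endosomes (r = 0.994, difference 0.36). Closest to Il2ra were the deubiquitinase Usp11 (r = 0.996, difference 0.33), the protein kinase C gene Prkch (r = 0.995, difference 0.61) and Pdha1 of pyruvate dehydrogenase (r = 0.994, difference 0.14). With only 6 arrays, 272 tested genes had r above 0.9 with Il21r and 212 with Il2ra.

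The rest of the pathway was read from 34 listed genes, 32 with a probe set and 26 tested, of which 2 rose (Il21 and Lta), 0 fell and 24 did not pass, with a median of -0.03. Among the ligands, Il21, a cytokine of helper T cells and the ligand of the Il21r product, rose. It was at 5.63, 5.99 and 5.91 in p300-deleted arrays, against 4.58, 5.20 and 4.62 in control arrays, a difference of 1.04 (SE 0.18, adjusted p = 0.0393 in limma). All p300-deleted arrays were higher than the controls, as for the receptor. The Il21 call held under 8 of 14 alternatives, as that of Il21r did under 8 of 15. In the fit over all probe sets Il21 did not pass (adjusted p = 0.0647 in limma).

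Il2, the cytokine that CD25 binds, was at 6.26, 6.79 and 6.51 in p300-deleted arrays, against 5.97, 6.33 and 5.58 in control arrays, with overlapping groups and a difference of 0.56 (SE 0.20, adjusted p = 0.198 in limma). Il4 differed by -0.39 (SE 0.36, adjusted p = 0.626 in limma). Il7, Il9, Il15 and Tslp were among the dim genes and were left out of the gene fit, and only Il15 entered the probe set fit (-0.23, SE 0.44, adjusted p = 0.830 in limma). Il7 read 2.57 to 2.87 in p300-deleted and 2.35 to 2.64 in control arrays, and Il15 read 3.42 to 3.95 in p300-deleted and 3.07 to 5.06 in control arrays, with the highest value in control 3. Of the partner chains, Crlf2, which pairs with the Il7r product to bind TSLP, differed by 0.05 (SE 0.10, adjusted p = 0.847 in limma), while Il9r and Il13ra1 were dim and not tested.

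Of the JAK and STAT list, 8 genes were tested and 0 called by limma (1 had an unadjusted p under 0.05), with a median of -0.15 and a range of -0.37 to 0.23. Jak1, the kinase bound to the ligand-specific chains, was at 10.69, 10.42 and 10.92 in p300-deleted arrays, against 11.16, 11.09 and 10.90 in control arrays, with overlap (-0.37, SE 0.14, adjusted p = 0.229 in limma). Ptpn6, the phosphatase SHP-1 that dampens receptor signalling, was at 9.79, 9.84 and 9.73 in p300-deleted arrays, against 9.70, 9.47 and 9.56 in control arrays, without overlap (0.21, SE 0.11, adjusted p = 0.333 in limma). Jak3, the kinase of the gamma chain, differed by -0.16, Stat5a by -0.14, Stat5b by -0.18, Stat3 by 0.23 and Stat6 by 0.08, none of which passed. These 5 genes were chosen after their values were seen. Dimmer probe sets of several genes named here differed from these values in sign or size in the fit over all probe sets. They were at 0.46 for Stat5a, 0.06 for Stat5b and 0.45 for Stat6, the last without overlap. Those of Stat3 were at 0.001 and 0.03, those of Jak1 at 0.09 and -0.59, and that of Ptpn6 at 0.17 with overlap. None of these dimmer probe sets passed the adjusted threshold in limma.

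Of 14 tested IL-2 and STAT5 response genes, 1 rose, 0 fell and 13 did not pass, with a median of 0.04 and a range of -1.12 to 0.57. An unadjusted p under 0.05 was seen for 8 of the 14, and 6 had no overlap between the groups, against 18.1% and 23.7% of all tested genes. Lta, the cytokine lymphotoxin alpha, rose in p300-deleted cells. It was at 8.68, 8.97 and 8.77 in p300-deleted arrays, against 8.22, 8.27 and 8.22 in control arrays, a difference of 0.57 (SE 0.11, adjusted p = 0.0467 in limma), and the call held under 5 of 15 alternatives. In the fit over all probe sets Lta did not pass (adjusted p = 0.0720 in limma). The list was split in direction, with 7 of the 14 differences positive. The cytokine-induced feedback inhibitors Socs1, Cish, Socs2 and Socs3 were picked with their values already known. They had positive differences of 0.50, 0.38, 0.31 and 0.30 without passing (adjusted p of 0.170, 0.230, 0.298 and 0.273 in limma). Among these inhibitors only Cish had no overlap between the groups. On the negative side Gzmb was at -1.12, Myc at -0.43, Ccnd3 at -0.34, Pim2 at -0.23, Pim1 at -0.17 and Ccnd2 at -0.11. None of these passed, and only Ccnd3 had no overlap. Bcl2 and Bcl2l1, survival genes also looked at after their values were seen, had opposite signs (0.38 and -0.29, adjusted p of 0.185 and 0.168 in limma).

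**Figure D4:**
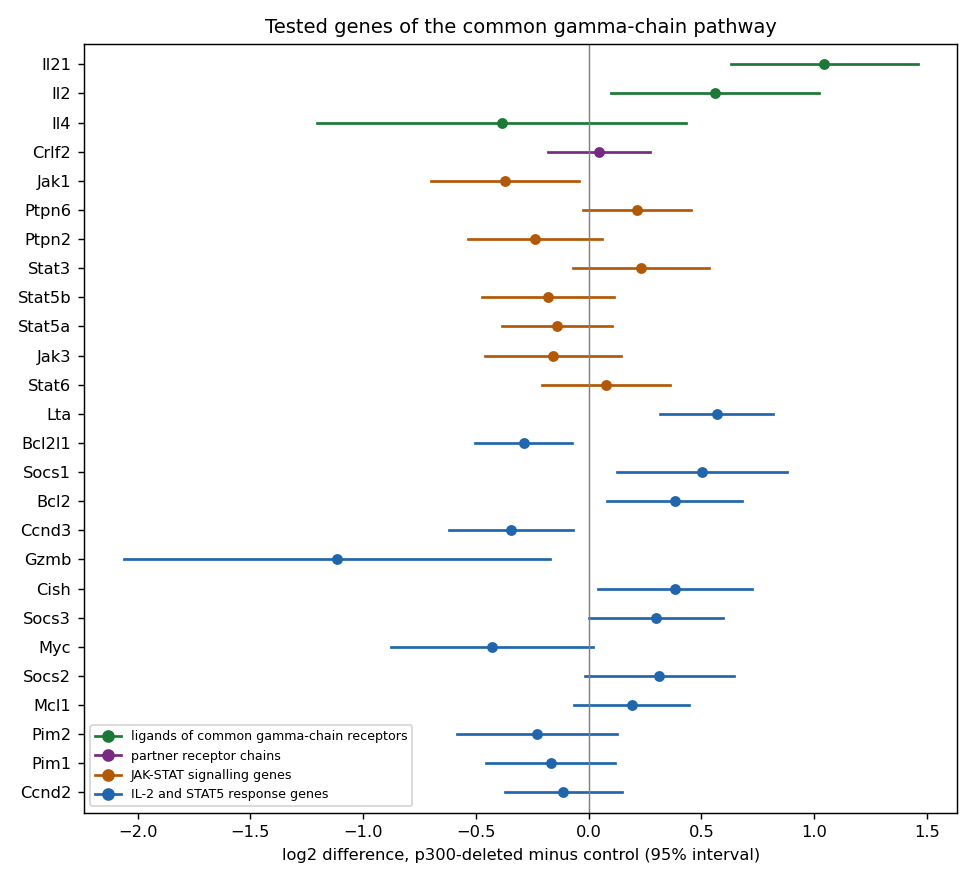
Log2 difference, p300-deleted minus control (x axis), of the 26 tested pathway genes other than the members (y axis, coloured by list), with points for the limma estimate and lines for the 95% interval. Il21 at 1.04 and Lta at 0.57 passed the test, and Gzmb has the lowest value at -1.12 with a wide interval.

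Markers of other cell types, some of which express these receptors, moved with the groups, and are given as the mean log2 level of each list per array. Of 6 tested plasma cell markers 4 rose (Tnfrsf17 by 1.80, Derl3 by 1.37, Jchain by 1.05 and Xbp1 by 0.73), with list means of 8.37 to 8.87 in p300-deleted and 7.59 to 7.75 in control arrays. Of 7 tested mast cell and basophil markers 6 rose, among them Mcpt8 by 2.53, Fcer1a and Cma1 by 1.67 and Mcpt4 by 1.38, with list means of 5.47 to 6.13 in p300-deleted and 4.46 to 4.70 in control arrays. Kit, also on this list, did not pass (0.09, with overlap), and Ms4a2 was dim and not tested. Of 6 tested NK cell markers, which matter for Il2rb, 1 rose (Gzma by 0.73), with list means of 7.72 to 8.47 in p300-deleted and 7.57 to 7.71 in control arrays. The rest of this list was split and did not pass, with Ncr1 at 1.46, Klrk1 at 1.15, Klrd1 at 0.36, Eomes at -0.26 and Nkg7 at -0.37. All 10 tested myeloid markers had positive differences but limma called 0 (6 had an unadjusted p under 0.05), with S100a8 at 2.59 and S100a9 at 2.43 and list means of 5.60 to 6.84 in p300-deleted and 4.65 to 5.36 in control arrays. The highest myeloid, plasma cell and mast cell means were all in p300-deleted 1, and the other p300-deleted arrays also lay above every control on these 3 lists. The part of these cell types in the Il21r difference was not tested.

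B cell markers, which matter for Il4ra and Il21r, had negative differences for all 5 tested genes and 0 calls in limma (0 at an unadjusted p under 0.05), with Ms4a1 at -0.44 and Cd22 at -0.30 and list means of 5.04 to 5.53 in p300-deleted and 5.48 to 5.59 in control arrays. Naive and memory T cell markers, which matter for Il7r, had 0 calls among 5 tested genes in limma (1 at an unadjusted p under 0.05), with Lef1 at 0.78 and Foxo1 at -0.19 and list means of 9.39 to 9.72 in p300-deleted and 9.28 to 9.50 in control arrays. T cell markers had 0 calls among 9 tested genes in limma (3 at an unadjusted p under 0.05), with Cd2 at 0.49 beside Cd4, and list means of 10.97 to 11.03 in p300-deleted and 10.73 to 10.90 in control arrays. Of the 9 tested Treg markers Foxp3 fell, Izumo1r, a surface protein of Treg also called FR4, rose by 0.62 and 7 did not pass, while 6 of the 9 differences were positive (median 0.23). The list means of 8.50 to 8.63 in p300-deleted and 9.05 to 9.28 in control arrays turned round without Foxp3, which was left out after its values were seen, to 9.18 to 9.32 in p300-deleted and 9.01 to 9.27 in control arrays, with overlap. Of the marker calls named, that of Xbp1 held under 6 of 15 alternatives, that of Izumo1r under 7 of 15 and that of Gzma under 9 of 15. CD8 T cell markers (2 tested, Cd8b1 at 0.35 and Cd8a at 0.10) and dendritic cell markers (4 tested, Itgax at 0.43 and Batf3 at -0.46) had 0 calls in limma (1 each at an unadjusted p under 0.05), with list means of 5.36 to 5.55 and 5.06 to 5.24 in p300-deleted and 5.18 to 5.25 and 4.98 to 5.58 in control arrays.

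**Figure D5:**
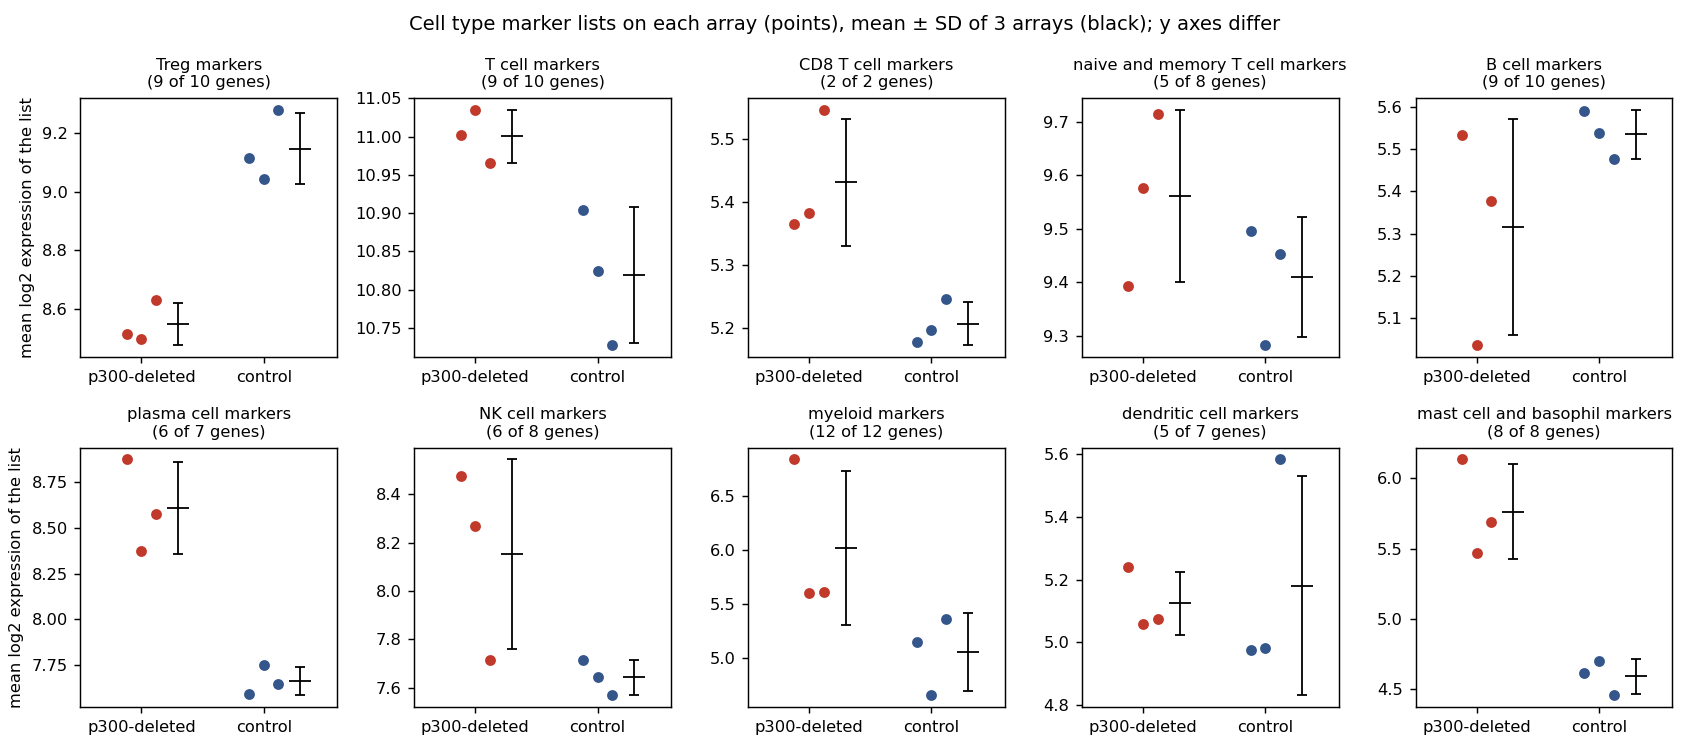
Mean log2 expression of 10 cell type marker lists (y axes, which differ between panels) in p300-deleted and control arrays (x axis), with 1 point per array and the mean ± SD of 3 arrays in black. The NK cell list lies barely apart, with 7.716 in p300-deleted 3 against 7.715 in control 1. The plasma cell, mast cell and basophil, T cell, CD8 T cell and myeloid lists lie apart with higher p300-deleted values. The Treg list lies apart with lower ones, a direction that turns without Foxp3 (9.18 to 9.32 in p300-deleted and 9.01 to 9.27 in control arrays), and the B cell, naive and memory T cell and dendritic cell lists overlap.

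Measures of RNA quality differed in part. For the Gapdh controls, the 3′ probe sets exceeded the 5′ ones by 0.06 to 0.14 on the log2 scale in p300-deleted and 0.21 to 0.59 in control arrays, without overlap and with the highest value in control 2, which read lowest of the controls for 6 of the 12 member probe sets, Il21r among them. For the actin controls this excess overlapped, at 0.29 to 0.43 in p300-deleted and 0.30 to 0.46 in control arrays. Probe sets for 18S ribosomal RNA averaged 7.74 to 9.47 in p300-deleted and 5.68 to 8.69 in control arrays. With it as a covariate the differences were 0.57 for Il21r, 0.17 for Il2ra, -0.13 for Il2rb and -0.33 for Il7r, with 0 calls among the members in limma. Array medians were 5.38 to 5.46.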

How the data were processed

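RNA of 3 p300-deleted and 3 control samples was measured on 1 array each, which limits the precision. The authors deposited normalized log2 expression for each probe set. The submitters' processing notes name RMA (version not given in the sources used here), which corrects background, quantile-normalizes and summarises probes, so shifts shared by all transcripts are removed and differences of dim ones are compressed. Groups came from the titles and genotypes in the labels. Of 22690 probe sets, 20380 outside the array controls had 1 symbol in the platform annotation, and symbols were updated by gene ID from RefSeq (GRCm38.p6). The brightest probe set of each of 12393 genes was used, the dimmest 30% were left out (below 3.91), and 8675 genes were fitted in R 4.3.3 using limma 3.58.1 (lmFit, then eBayes) with two-sided tests and Benjamini-Hochberg adjustment. A second fit took each of 14266 probe sets as a feature. The gene fit was tested on simulated data.

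Members, lists and alternatives were chosen with earlier results of these data known. Named genes were all members, up to 4 called genes of each list or else the lowest p-values (up to 2), Foxp3, Cd4 and the 3 genes most correlated with Il2ra and with the member of lowest p. Alternatives were other filters, normalizations, variance models and thresholds, the mean of a gene's probe sets, array weights, an 18S covariate, a replicate block and leaving out each array.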

Additional observations from a re-analysis of the deposited data

How the results depend on the processing

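All 12 member probe sets and the pathway counts rest on 3 arrays a group. Differences of several times the median SE of 0.13 could miss the threshold, as those of Il7r at -0.46 and Cd4 at 0.68 did. The shift of Il2ra minus Il7r was 0.70 after a further quantile normalization, 0.64 with the mean of all probe sets, and 0.60 to 0.85 on leaving out arrays.

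The number of members called was 1 (Il21r) in the reported fit, without the filter, with the dimmest 50% left out, after either normalization, with the mean of all probe sets, with the trended and robust variance and at an adjusted p under 0.10. It was 3 with array weights, which added Il2rb at -0.47 and Il7r at -0.69, 0 with the 18S covariate, and 0 to 1 on leaving out arrays. Member probe sets called numbered 0 in the reported fit, 1 with the trended and robust variance and at an adjusted p under 0.10, 5 with array weights, and 0 to 1 on leaving out arrays. Pathway genes called numbered 2 (Il21 and Lta) in the reported fit, 1 with the dimmest 50% left out, after a further quantile normalization, with median centring and with the mean of all probe sets, 6 with array weights, 0 with the 18S covariate, and 0 to 1 on leaving out arrays. Over all genes 149 were called, 95 with the mean of all probe sets, 1019 with array weights, 15 with the 18S covariate, 399 at an adjusted p under 0.10, and 9 to 230 on leaving out arrays. The cause of these moves was not tested.

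With the replicate number as a block, 98 genes, 0 members, 0 member probe sets and 1 pathway gene (Il21) were called, Il21r was at 0.65 with adjusted p = 0.0713 in limma and Il2ra minus Il7r was 0.71. The block also ended the calls of Lta, Izumo1r and Xbp1 (adjusted p of 0.0824, 0.0703 and 0.0505 in limma) and added S100a8 and S100a9 (0.00782 and 0.00754), which passed under no other alternative. Deviations of same-numbered arrays from their group means correlated at -0.07, 0.12 and -0.12 over the tested genes. With 3 arrays a group, these correlations cannot settle whether the numbers mark a pairing. The block lowered the SE of S100a8 from 0.68 to 0.23 and of S100a9 from 0.69 to 0.20, and raised that of Il21r from 0.11 to 0.13. Whether same-numbered samples were handled together was not tested.

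Sign changes were seen for 4 probe sets. With array weights the one used for Il4ra was at -0.017, 1423996_a_at at -0.13 and 1447858_x_at at 0.031. On leaving out arrays Il4ra ran from -0.12 (without control 3) to 0.15, 1423996_a_at from -0.036 (without control 3) to 0.31, 1447858_x_at from -0.17 to 0.11 (without p300-deleted 1), and Il7r 1448576_at from -0.97 to 0.26, with 0.15 without control 3. The mean of the Treg marker list differed by -0.60 with Foxp3 and by 0.14 without it, a choice made after seeing the data. No other member value changed sign under the alternatives run.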
